A study of Mus musculus with 14 samples.

Results

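Potassium channel genes were taken as the rows of the count table whose symbol starts with Kcn, followed by letters and a number. Of the 52459 genes in the table, 98 matched, 5 of these symbols are not analysed here, and the remaining 93 are described. They encode pore-forming subunits, auxiliary subunits and a few antisense transcripts. The RNA came from dispersed pancreatic islets of male C57BL/6J mice aged 7 months, sorted by flow cytometry on acidic beta-galactosidase activity, an enzyme activity widely used as a marker of senescent cells. There were 7 libraries of beta-galactosidase-negative and 7 of beta-galactosidase-positive cells, numbered 1 to 7 in each group. All mice shared strain, sex and age, and the labels name no transgene or treatment. The labels name no cell type marker in the sort, so a library can hold any islet cell that fell in its gate.

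Potassium channels let potassium leave the cell and pull the membrane towards rest. In the insulin-secreting beta cell, closure of channels that are open at rest starts electrical activity, and voltage-gated and calcium-activated channels then end each action potential. Tandem-pore (K2P) leak channels set the resting level, inward rectifiers hold it, and channels of the ether-a-go-go family (Kcnh genes) shape the return to it. Other cells of the islet, such as delta cells, endothelial cells, pericytes and macrophages, carry channel sets of their own.

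Library totals were 11060144 to 23045934 counts in negative and 15585779 to 24577025 in positive libraries, so that 1 read was worth 0.0403 to 0.0925 CPM, the count scaled to the library's total. The potassium channel genes together held 0.0958% to 0.127% of the counts of a library. Whether each library is a separate animal is not in the labels, and the p-values cover the spread among libraries alone, which may be partly technical. Libraries with the same number deviated from their group means together (correlations of 0.203 to 0.54 over genes in the 7 pairs), and the numbers were therefore also used as pairs. The summed level of the beta cell markers was 107710 to 159487 CPM (median 143281) in negative libraries and 103338 to 133886 CPM (median 123718) in positive ones. Only negative library 3 lay within the positive range, as the other negative libraries held at least 140483 CPM. Markers of other cells moved with the sort. The summed level of endothelial markers ran from 8.57 to 82.6 CPM (median 14.3) in negative and from 440 to 1469 CPM (median 670) in positive libraries, and all 19 tested endothelial markers rose. For macrophage markers the summed level ran from 19.1 to 31.0 CPM (median 20.9) and from 112 to 1107 CPM (median 165), and all 19 tested rose. Pericyte and smooth muscle markers summed to 5.67 to 40.3 CPM (median 8.89) and 64.2 to 200 CPM (median 97.7), and 7 of 11 tested rose. Positive libraries 6 and 7 had the highest endothelial sums (1469 and 1408 CPM) and macrophage sums (1107 and 782 CPM). In such bulk samples, fewer cells of a type and less RNA per cell cannot be told apart.

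In beta-galactosidase-positive cells a few potassium channel genes were higher and Kcnk16 was lower, while most of those tested were not called. Of the 93 genes, 49 had enough reads to be tested. The quasi-likelihood test of edgeR, with Benjamini-Hochberg correction over the 16350 genes tested, called 7 genes higher (14.3%) and 1 lower (2.04%) in positive cells at an adjusted p below 0.05. Over all genes tested, 6.40% rose and 1.63% fell (8.03% in all). The 7 that rose were Kcnk5, Kcnc2, Kcnd2, Kcne4, Kcnh7, Kcnj2 and Kcnk6, and each had a mean under 2 CPM in negative cells. The filter on low counts bears on this, since a gene that scarce in negative libraries could be tested only where its positive libraries held enough reads. Under the stricter filter 3 of them were tested and called. That filter tested 38 potassium channel genes and called 3 higher, beside 856 higher of all 14907 genes tested. The gene that fell was Kcnk16, the channel gene with the highest level. The median log2 fold change (positive over negative) of the 49 genes was -0.07, beside 0.00 over all genes, with 20 values above 0 and 29 below.

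With the library number as a block, 8 rose and 5 fell by the same test (26.5% called in all), beside 11.8% and 7.77% of all genes (19.6% in all). The genes added included Kcnn2, which rose, and Kcnh6, Kcnh5 and Kcna2, which fell. Leaving out any 1 of the 14 libraries changed no call of the 8 genes called without the block. Without the 4 libraries numbered 6 and 7, 5 genes rose and none fell, beside 3.28% and 0.275% of all genes (3.55% in all). That fit gave an adjusted p of 0.0788 for Kcne4, 0.180 for Kcnk6 and 0.0890 for Kcnk16. With the block added to it, 5 rose and 5 fell, Kcnk16 among them, beside 6.36% and 3.14% of all genes (9.51% in all). DESeq2 tested 66 of the genes, of which 10 rose and 3 fell, beside 7.17% and 2.14% of all genes (9.31% in all).

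The voltage-gated pore subunits had 10 of 17 genes tested, of which 2 rose and none fell without the block, and Kcna2 fell with it. K2P leak channels had 7 of 14 tested, with 2 higher and 1 lower. All 8 ether-a-go-go family genes were tested. By edgeR, 1 rose and none fell without the block, and 2 fell with it (37.5% called, beside 19.6% of all genes). Inward rectifiers had 4 of 13 tested and 1 rose. The KCNE auxiliary subunits had 1 of 5 tested, and it rose. Without the block, no gene passed among 5 tested in the calcium- or sodium-activated channel families, the 4 KChIP genes and the 3 Kv beta subunits. Nor did any of the 2 tested BK beta subunits, 2 tested KCNQ channels, 2 tested silent modifiers or the 1 tested antisense transcript. Without the block, 6.40% of all genes tested rose and 1.63% fell. With so few genes tested in each class, these counts are no measure of a class. Classes followed the symbol prefix, not the gating of each channel.

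**Figure D1:**
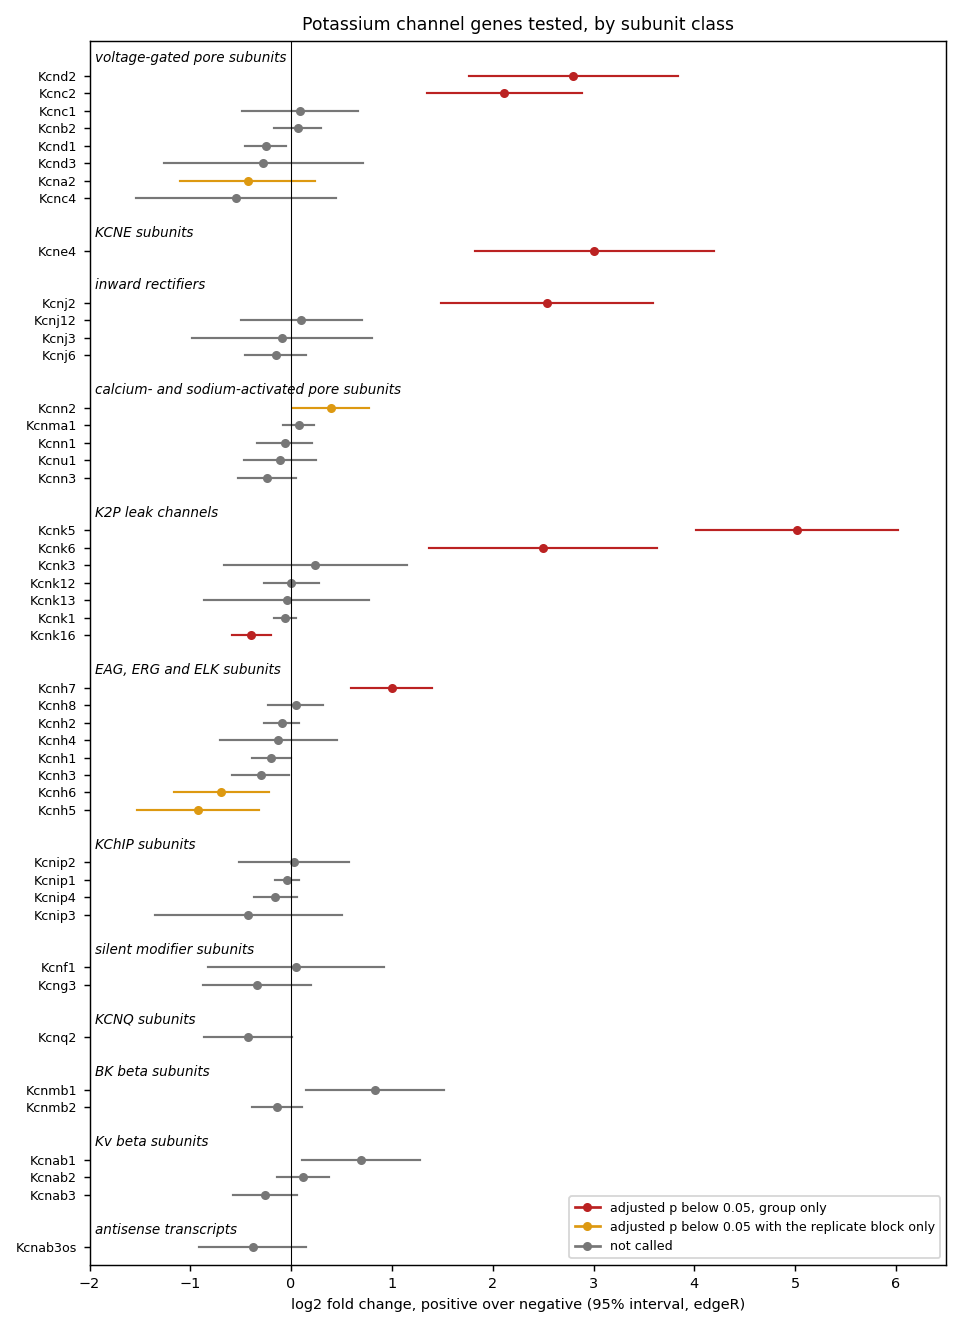
Log2 fold change (positive over negative, x axis) of 46 tested potassium channel genes grouped by class (y axis), with 95% intervals from the edgeR fit without the block; red genes passed, orange ones passed only with the block. The 7 genes that rose lie far to the right, up to 5.02, while Kcnk16 is the 1 gene that fell, at -0.39.

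Kcnk16 and Kcnk5, neighbouring K2P genes, changed in opposite directions. Kcnk16 encodes an alkaline-activated leak channel that is abundant in beta cells and limits their electrical activity, and Kcnk5 encodes an acid-sensitive leak channel best known from epithelia. Both lie on the minus strand of chromosome 14 (GRCm38), Kcnk5 at 20140057 to 20181809 and Kcnk16 at 20261376 to 20269199, 79.6 kb apart with 1 annotated small RNA gene between them. Their promoter windows, the 250 bases before the RefSeq start (GRCm38.p6), are shown because the neighbours moved apart, with matches to the GC box GGGCGG on either strand in capitals (the lower strand reads CCGCCC). The Kcnk16 window is chr14:20269270-20269519 and that of Kcnk5 is chr14:20181783-20182032, both printed 5′ to 3′ along the minus strand.
Kcnk16: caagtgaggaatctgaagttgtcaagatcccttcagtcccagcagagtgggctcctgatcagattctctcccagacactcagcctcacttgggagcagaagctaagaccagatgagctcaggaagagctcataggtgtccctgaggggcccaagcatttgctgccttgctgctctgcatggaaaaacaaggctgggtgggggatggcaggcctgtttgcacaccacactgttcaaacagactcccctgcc
Kcnk5: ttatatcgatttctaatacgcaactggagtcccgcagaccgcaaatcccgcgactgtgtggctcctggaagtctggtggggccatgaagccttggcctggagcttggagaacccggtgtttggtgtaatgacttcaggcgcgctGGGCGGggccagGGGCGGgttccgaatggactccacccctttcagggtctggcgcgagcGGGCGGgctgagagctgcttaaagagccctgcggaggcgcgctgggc
The Kcnk16 window was 54.8% G and C with 0 CpG dinucleotides and 0 GC boxes, whereas the Kcnk5 window was 62.8% G and C with 19 CpG and 3 GC boxes. Over 32817 such windows of the genome the median was 52.4% G and C and 6 CpG, and 32.7% held a GC box. TATAAA was in neither, beside 12.4% of all windows. These matches describe the letters only.

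Kcnk16 ran from 161 to 216 CPM (median 179) in negative libraries and from 112 to 163 CPM (median 142) in positive ones. Only the highest positive library reached into the negative range, and the positive library was the lower of its pair in 7 of 7 pairs, as it was for 6.93% of all genes and for 5 of the 49 channel genes tested (the others being Kcnh6, Kcnh5, Kcna2 and Kcnh3). Means were 181 ± 19.5 CPM and 138 ± 19.0 CPM (SD, n = 7 each), and the log2 fold change was -0.39 ± 0.09 (SE, 95% interval -0.58 to -0.20, adjusted p = 0.0111 by edgeR, 0.000284 with the block). Leaving out single libraries gave an adjusted p of 0.00512 to 0.0242 by the same test. Beta cell markers were lower too, with a median log2 fold change of -0.35. Of 17 tested, 3 fell (17.6%, beside 1.63% of all genes), and 9 with the block (52.9%, beside 7.77%). Without the libraries numbered 6 and 7, 2 fell, beside 0.275% of all genes. Relative to the mean log2 level of those markers, a measure added after the values were seen, Kcnk16 differed by -0.08 between groups (exact permutation test, two-sided, p = 0.334, adjusted over 13 genes 0.395).

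Kcnk5 was near the detection limit in negative cells, at 0 to 0.427 CPM (median 0.180), and ran from 3.71 to 12.1 CPM (median 5.15) in positive cells. Every positive library lay above every negative one. That held for 3.50% of all genes and for 5 of the potassium channel genes. The counts behind these values were 26 reads in all negative and 931 in all positive libraries, and the fold change was 32.4, or 5.02 ± 0.47 on the log2 scale (SE, adjusted p = 2.64e-05 by edgeR). It was the largest fold change among the 49 tested.

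Kcnk6, another K2P gene, ran from 0 to 0.842 CPM (median 0.185) in negative and from 0.686 to 2.80 CPM (median 1.08) in positive libraries. Negative library 3 reached into the positive range and stood apart from the other negative ones. The log2 fold change was 2.50 ± 0.53 (SE, adjusted p = 0.00659 by edgeR), and 1.79 without the libraries numbered 6 and 7. The abundant K2P gene Kcnk1 was at 48.0 ± 2.64 CPM and 46.0 ± 2.55 CPM (SD, n = 7 each, log2 fold change -0.06, adjusted p = 0.555 by edgeR). Kcnk3, an acid-sensitive leak channel gene, varied widely within each group, at 20.4 ± 12.8 and 24.1 ± 12.8 CPM (0.24 ± 0.42 SE, adjusted p = 0.797 by edgeR), and Kcnk12 was at 10.3 ± 2.17 and 10.4 ± 0.970 CPM.

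**Figure D2:**
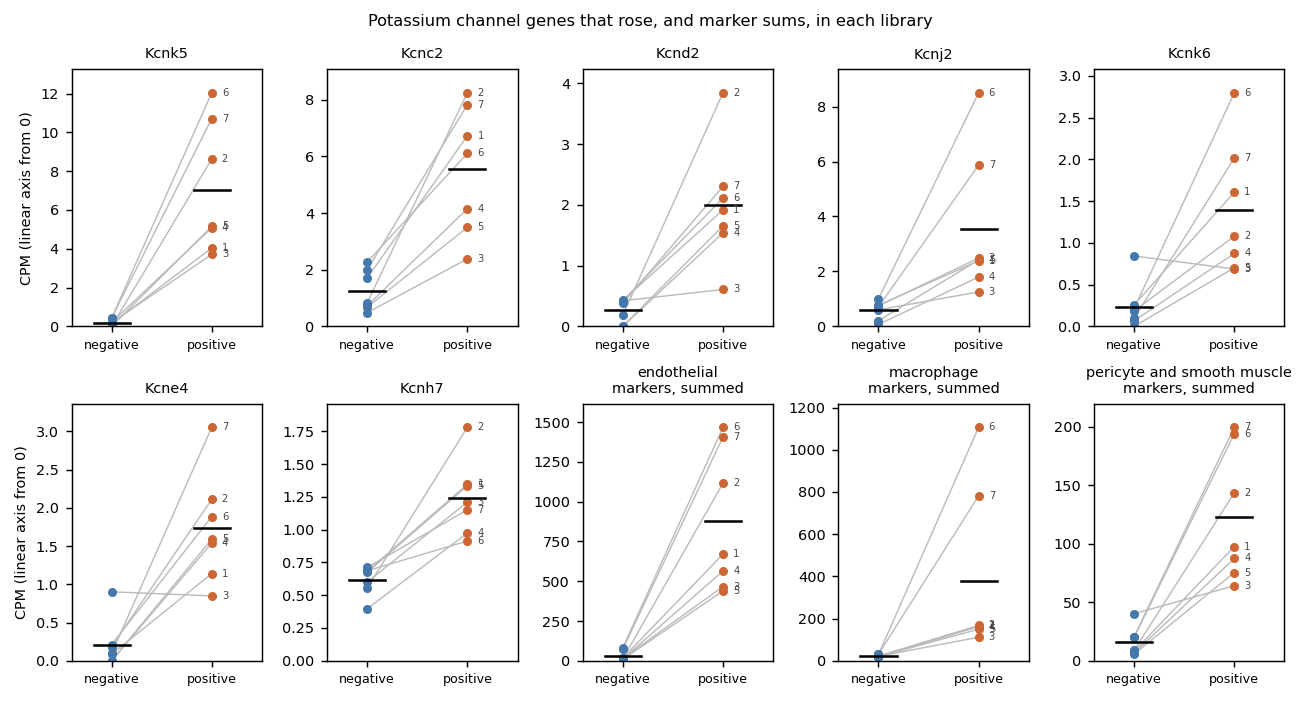
Level (CPM, linear axis from 0) of each of the 7 potassium channel genes that rose, and the summed level of 3 marker lists, with 1 point per library, a grey line joining the libraries of a number (printed beside the positive point) and a black bar at each group mean. Kcne4 and Kcnk6 overlap between the groups through negative library 3, at 0.902 and 0.842 CPM, and the other 5 genes do not overlap.

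Among voltage-gated pore subunits, Kcnc2 and Kcnd2 rose. Kcnc2, a fast-repolarizing channel of the Shaw family known from fast-spiking neurons, ran from 0.481 to 2.27 CPM (median 0.833) in negative and from 2.38 to 8.25 CPM (median 6.11) in positive libraries. The groups did not overlap, and the log2 fold change was 2.12 ± 0.36 (SE, adjusted p = 0.00127 by edgeR). Kcnd2, a Kv4 subunit that carries the transient A-type current, ran from 0 to 0.427 CPM (median 0.380) in negative and from 0.606 to 3.85 CPM (median 1.92) in positive libraries. The groups again did not overlap, on 35 and 267 reads in all, and the log2 fold change was 2.80 ± 0.49 (SE, adjusted p = 0.00138 by edgeR). Beside these, delta cell markers summed to 581 to 1002 CPM (median 719) in negative and 796 to 2757 CPM (median 1723) in positive libraries, where 3 of 5 tested markers (Sst, Hhex and Cd24a) rose and the other two were not called, 1 of them with a log2 fold change of -0.12. The part of cell composition in these channel changes was not tested.

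Of the other voltage-gated genes, Kcnb2, a delayed rectifier, was at 22.2 ± 3.43 and 23.2 ± 3.85 CPM (SD, n = 7 each, log2 difference 0.06, adjusted p = 0.796 by edgeR). Kcnc1 was at 0.986 ± 0.368 and 1.05 ± 0.421 CPM. Kcnd1, another Kv4 pore gene, was at 9.41 ± 1.37 and 7.89 ± 0.557 CPM (-0.25 ± 0.10 SE, adjusted p = 0.135 by edgeR). The third Kv4 pore gene, Kcnd3, was at 0.603 ± 0.374 and 0.492 ± 0.282 CPM (-0.28 ± 0.47 SE, adjusted p = 0.792 by edgeR). Kcna2, a Shaker-type delayed rectifier, ran from 5.17 to 18.4 CPM (median 7.08) and from 4.00 to 13.6 CPM (median 5.49). The number 1 library was the high one in both groups, and the positive library was the lower in all 7 pairs. Its log2 fold change was -0.43 ± 0.31 (SE, adjusted p = 0.475 by edgeR, 0.00432 with the block).

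In the ether-a-go-go family, Kcnh7 rose. Kcnh6 and Kcnh5 fell by edgeR in the fit with the block, and by DESeq2 without a block. Kcnh7, an ERG-type channel gene, ran from 0.397 to 0.712 CPM (median 0.674) in negative and from 0.914 to 1.78 CPM (median 1.21) in positive libraries. The groups did not overlap, and the log2 fold change was 1.00 ± 0.19 (SE, adjusted p = 0.00271 by edgeR). Kcnh7 shares exonic sequence with Gca on the other strand, and since the strand setting of the counting is not known their reads may be mixed. Such an overlap with another transcript also exists for Kcnn2, Kcne3 and Kcnj15, called in other fits, and for several genes not called. Gca was at 27.3 ± 2.04 and 23.8 ± 1.78 CPM (SD, n = 7 each, log2 difference -0.19, adjusted p = 0.0834 by edgeR).

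Kcnh6, the ERG-type gene tied to insulin secretion, ran from 43.8 to 111 CPM (median 61.8) in negative and from 29.5 to 65.0 CPM (median 38.3) in positive libraries. The groups overlapped, but the positive library was the lower in 7 of 7 pairs. The log2 fold change was -0.69 ± 0.22 (SE, adjusted p = 0.0738 by edgeR, 2.07e-05 with the block), and the gene passed without the block when negative library 3 (0.0345) or positive library 1 (0.0178) was left out. Relative to the beta cell marker mean its difference was -0.36 (exact permutation test, p = 0.0227, adjusted over 13 genes 0.196). The scarcer Kcnh5 ran from 0.541 to 2.13 CPM (median 1.28) and from 0.404 to 0.844 CPM (median 0.636), and was also lower in all 7 pairs. Its log2 fold change was -0.93 ± 0.28 (SE, adjusted p = 0.0583 by edgeR, 0.00815 with the block). Kcnh5 passed without the block when negative library 3 (0.0128) or negative library 7 (0.0363) was left out. DESeq2, without a block, gave an adjusted p of 0.0144 for Kcnh6 and 0.0351 for Kcnh5. Kcnh2 was at 105 ± 14.9 and 98.2 ± 5.97 CPM (SD, n = 7 each, log2 difference -0.09 ± 0.08 SE, adjusted p = 0.559 by edgeR).

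**Figure D3:**
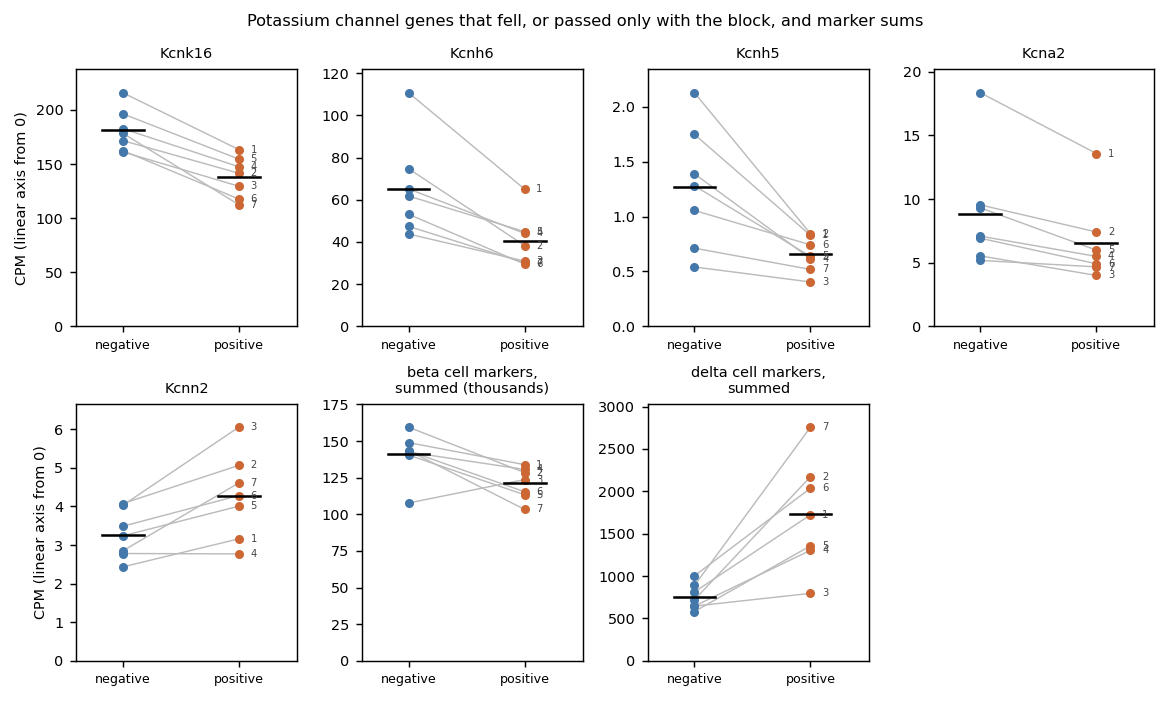
Level (CPM, linear axis from 0) of Kcnk16, of 4 genes that edgeR called only with the block, and of 2 marker sums. Each point is 1 library, a grey line joins the libraries of a number, and a black bar marks each group mean. The positive library is the lower in 7 of 7 pairs for Kcnk16, Kcnh6, Kcnh5 and Kcna2, and the higher in 6 of 7 for Kcnn2.

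Kcnj2, a strong inward rectifier known from endothelial and muscle cells and macrophages, was the 1 gene that rose among the 4 inward rectifiers tested. With no filter on low counts, 3 of the 13 rose, Kcnj10 and Kcnj15 being added. Kcnj2 ran from 0.0662 to 1.00 CPM (median 0.712) in negative and from 1.25 to 8.51 CPM (median 2.42) in positive libraries. Positive libraries 6 and 7 held 8.51 and 5.88 CPM and the other positive ones at most 2.49 CPM, and the groups did not overlap. The log2 fold change was 2.54 ± 0.49 (SE, adjusted p = 0.00342 by edgeR), and the call held without the libraries numbered 6 and 7, which also had the highest endothelial and macrophage sums. The remaining libraries still differed in these sums. Endothelial sums were at most 17.5 CPM in negative and at least 440 CPM in positive ones, and macrophage sums at most 22.4 and at least 112 CPM. The part of cell content in the Kcnj2 change was not tested. The G protein-gated rectifier genes Kcnj3 (3.13 ± 1.69 and 2.95 ± 1.84 CPM) and Kcnj6 (8.30 ± 1.08 and 7.47 ± 1.66 CPM, log2 difference -0.15) were not called. The windows of Kcnj2 (chr11:111065914-111066163, plus strand) and Kcnh6 (chr11:106007898-106008147, plus strand), 1 gene of each direction on chromosome 11, are printed likewise 5′ to 3′, with GC boxes in capitals.
Kcnj2: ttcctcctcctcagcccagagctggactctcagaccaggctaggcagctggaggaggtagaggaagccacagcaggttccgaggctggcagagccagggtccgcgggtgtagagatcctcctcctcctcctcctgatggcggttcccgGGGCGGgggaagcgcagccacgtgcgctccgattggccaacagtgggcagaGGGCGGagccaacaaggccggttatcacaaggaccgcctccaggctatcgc
Kcnh6: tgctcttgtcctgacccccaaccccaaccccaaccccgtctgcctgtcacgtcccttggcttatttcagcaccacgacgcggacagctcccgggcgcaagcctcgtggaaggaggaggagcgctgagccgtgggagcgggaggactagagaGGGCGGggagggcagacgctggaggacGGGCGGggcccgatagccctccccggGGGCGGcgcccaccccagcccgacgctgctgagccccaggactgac
The Kcnj2 window was 65.6% G and C with 14 CpG, 2 GC boxes and 1 match to the E box CACGTG, which 6.0% of all windows held. The Kcnh6 window was 70.8% G and C with 21 CpG and 3 GC boxes, and neither held TATAAA.

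Of the auxiliary subunits tested, Kcne4 rose, while Kcne3 had too few reads for the main fit and rose with no filter on low counts. Kcne4, which inhibits several voltage-gated channels, ran from 0 to 0.902 CPM (median 0.0950) in negative and from 0.848 to 3.05 CPM (median 1.59) in positive libraries. Only negative library 3 reached into the positive range, and the positive library was the higher in 6 of 7 pairs. The log2 fold change was 3.01 ± 0.56 (SE, adjusted p = 0.00223 by edgeR). Kcnmb1, the smooth muscle type beta subunit of the large-conductance calcium-activated (BK) channel, was at 3.45 ± 1.00 and 6.11 ± 3.57 CPM (0.83 ± 0.32 SE, adjusted p = 0.144 by edgeR). Kcnmb2, another BK beta subunit gene, was at 68.2 ± 9.29 and 61.8 ± 11.7 CPM (SD, n = 7 each, log2 difference -0.14). Kcnab1, a Kv beta subunit, was at 0.525 ± 0.235 and 0.834 ± 0.210 CPM and higher in 7 of 7 pairs, as were 11.1% of all genes (0.69 ± 0.28 SE, adjusted p = 0.157 by edgeR). Kcnip1, a calcium-sensing partner of Kv4 channels, was at 96.3 ± 4.01 and 93.8 ± 7.86 CPM (-0.04).

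No calcium-activated or KCNQ gene passed without the block. Kcnma1, the BK pore gene, was at 81.0 ± 8.24 and 85.3 ± 7.62 CPM (SD, n = 7 each, log2 difference 0.07 ± 0.07 SE, adjusted p = 0.614 by edgeR). Of the small-conductance genes, Kcnn3 was at 38.5 ± 8.88 and 32.6 ± 5.35 CPM (-0.24 ± 0.14 SE, adjusted p = 0.329 by edgeR) and Kcnn1 at 4.30 ± 0.852 and 4.14 ± 0.360 CPM. Kcnn2 ran from 2.43 to 4.07 CPM (median 3.24) and from 2.77 to 6.06 CPM (median 4.28). It was the higher in 6 of 7 pairs, at 0.40 ± 0.18 (SE, adjusted p = 0.204 by edgeR, 0.0353 with the block).

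Levels of different genes were compared per length, as CPM divided by exon length in kilobases (RPKM), over all 14 libraries. Kcnk16 was highest at 67.2 ± 12.2 RPKM (SD), followed by Kcnk1 (21.0 ± 1.21), Kcnh2 (20.9 ± 2.36), Kcnmb2 (20.8 ± 3.42), Kcnip1 (15.3 ± 0.991), Kcnh6 (14.9 ± 6.17), with Kcnk3 (5.59 ± 3.13) and Kcnk12 (5.25 ± 0.819) at the end of the 10 highest. Kcnk16 exceeded Kcnk1, and Kcnmb2 exceeded Kcnip1, in 14 of 14 libraries. Kcnk1, Kcnh2 and Kcnmb2 did not differ from each other in that order beyond their spread, nor Kcnk3 from Kcnk12. Kcnip1 exceeded Kcnh6 in 9 of 14 libraries, and their gap lay within the spread. By group, Kcnh6 and Kcnip1 were at 18.4 ± 6.41 and 15.5 ± 0.647 RPKM in negative libraries (SD, n = 7). In positive libraries they were at 11.4 ± 3.56 and 15.1 ± 1.27 RPKM (SD, n = 7). Among these 10 genes only Kcnk16 was called without the block.

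**Figure D4:**
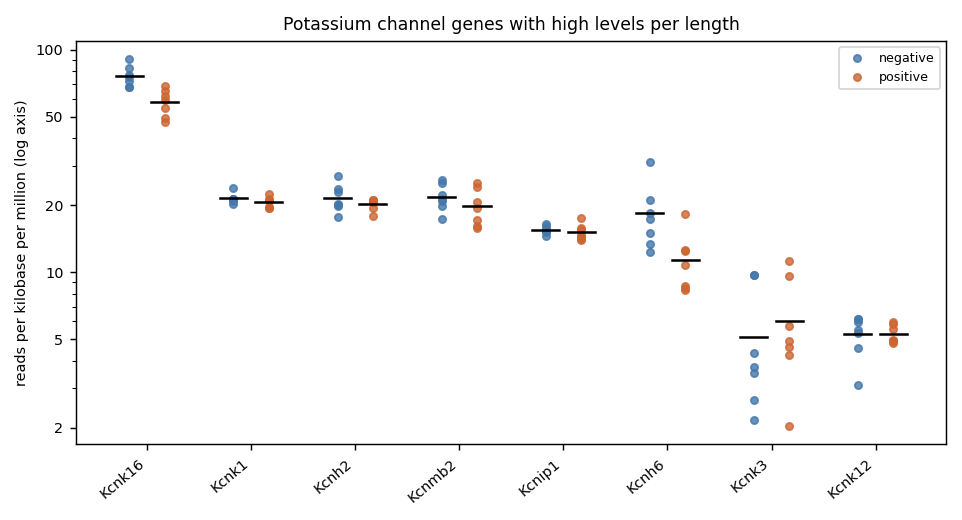
Level per length (RPKM, log axis) of 8 potassium channel genes with high levels, 1 point per library, negative in blue and positive in orange, with black bars at the group means. Kcnk16, at 67.2 RPKM on average, lies above the other 7 in 14 of 14 libraries.

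The relation to the beta cell marker mean was computed for 13 genes, the 10 highest per length and the further genes called lower. The marker mean itself was lower by a log2 difference of -0.32 in positive cells (exact permutation test, two-sided, p = 0.0251, lower in 6 of 7 pairs). Relative to it, Kcnk1 (0.26), Kcnh2 (0.23), Kcnmb2 (0.17), Kcnip1 (0.27), Kcnk3 (0.59) and Kcnk12 (0.35) had positive differences. Kcnk16, Kcnh6, Kcnh5 (-0.24) and Kcna2 (-0.07) had negative ones. No difference passed after adjustment over the 13 genes, in a test that did not use the library numbers as pairs. By number, Kcnh6 was relatively lower in the positive library in 7 of 7 pairs and Kcnmb2 in 0 of 7.

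**Figure D5:**
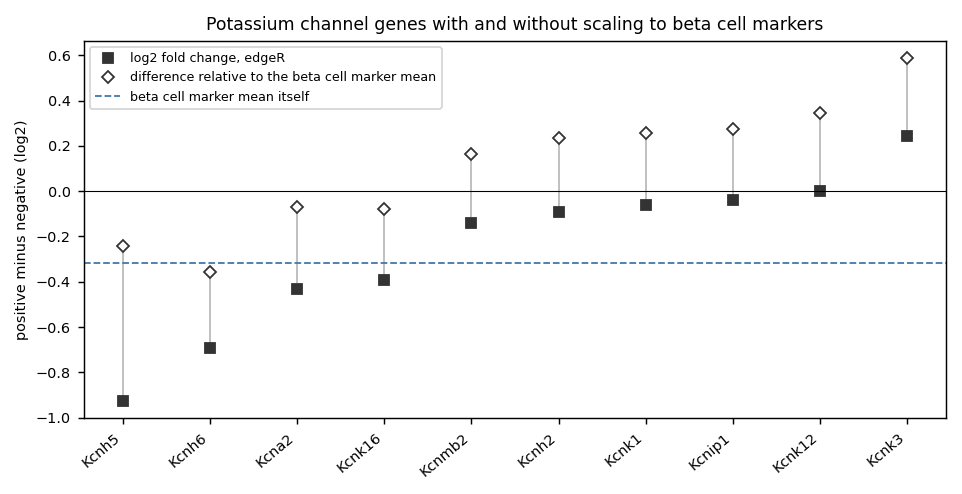
Difference between positive and negative libraries (log2, y axis) for 10 potassium channel genes, as the edgeR fold change (squares) and relative to the mean log2 level of the beta cell markers (diamonds), with a dashed line at the marker mean's own difference of -0.32. Kcnk16 lies at -0.08 and Kcnh6 at -0.36 after the marker mean is subtracted.

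Of 17 potassium channel genes described in beta cells, 14 were tested, Kcnd2 rose and Kcnk16 fell (7.14% each, beside 6.40% and 1.63% of all genes). With the block 2 rose and 2 fell, Kcnn2 and Kcnh6 being added, and without the libraries numbered 6 and 7 Kcnd2 rose and 0 fell. The 3 untested were Kcnj5 (0.256 and 0.199 CPM), Kcnmb4 (0.0705 and 0.197 CPM) and Kcnn4 (0.417 and 0.531 CPM). In all, 44 of the 93 genes had too few reads to be tested, with group means of at most 0.824 CPM, and 21 of them had 10 reads or fewer over all libraries. Kcnv1 and Kcnd3os had 0 reads, which allows a level of up to 0.0117 CPM over the 14 libraries (3 reads of the total, counting error only). When all genes with a read were tested, 10 potassium channel genes rose and 1 fell by edgeR, beside 3.94% and 0.856% of all genes (4.80% in all). The 3 added were the inward rectifier genes Kcnj10 (10 reads in negative, 98 in positive libraries) and Kcnj15 (2 and 23) and the auxiliary gene Kcne3 (7 and 104), named after their values were seen. DESeq2 also called these 3 higher.

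Of 30 other genes listed under potassium transport, 25 were tested, 7 rose (28.0%) and none fell by edgeR, beside 6.40% and 1.63% of all genes. The median log2 fold change of those tested was 0.08, beside 0.00 over all genes. The list holds Stx1a, an exocytosis gene, and Abcc9, which is also among the pericyte and smooth muscle markers. The number that rose was 3 without the libraries numbered 6 and 7, and 5 with no filter on low counts. Among the 7 were Abcc9, a regulatory subunit of ATP-sensitive channels in vessels (3.76, adjusted p = 0.000188), Slc12a2, the sodium-potassium-chloride importer (0.90 ± 0.10 SE, adjusted p = 6.01e-05), and Dpp6, an auxiliary protein of Kv4 channels (2.19, adjusted p = 0.000571). Stx1a (0.33, adjusted p = 0.0471) and Atp1b1 (0.20, adjusted p = 0.0467) also passed, but their edgeR calls were lost on leaving out single libraries in 11 and 14 of 14 cases. Dpp6 averaged 2.71 CPM without and 12.6 CPM with the enzyme activity. Abcc8, the regulatory subunit of the beta cell's ATP-sensitive channel, was at 857 and 745 CPM (log2 difference -0.20, adjusted p = 0.264 by edgeR, 0.0171 with the block) and lower in 7 of 7 pairs.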

How the data were processed

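Polyadenylated RNA of sorted islet cells was made into directional libraries, per the labels' protocols. Reads were placed on GRCm38 with Subread and counted per gene with featureCounts, per the submitters' processing notes; their versions, annotation and strand setting are not given in the sources used here. What the authors deposited are raw read counts per gene, and the 14 columns were matched to samples by the column names in the labels.

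Groups were compared in R 4.3.3 with edgeR 4.0.16: filterByExpr, TMM factors (0.969 to 1.03), robust quasi-likelihood F-test, group as the only term, Benjamini-Hochberg adjustment over 16350 genes, threshold 0.05. Tests were two-sided, and the scripts were tested on simulated data. Standard errors came from the F statistic. CPM used TMM-scaled library sizes. Gene coordinates and exon lengths came from GENCODE M21, which matched 91.5% of symbols and all 93 potassium channel genes, and promoter windows from RefSeq. Levels relative to beta cell markers used log2(CPM + 0.5) and all 3432 arrangements of the group labels.

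Library numbers were taken to pair the samples, since same-numbered libraries correlated above 0.1 in all 7 pairs (0.203 to 0.54). This comes from the data, as the labels do not say what a number marks. Alternatives were the replicate block, DESeq2 1.42.0, other scaling factors, other count filters and leaving out libraries.

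The potassium channel genes, gene lists and alternatives were chosen with earlier results of these data known. Named genes were those called with or without the block, those described in beta cells, the 10 highest per length, and the 3 uncalled ones with the smallest adjusted p. Of the remaining marker lists, 5 of 13 tested acinar (12 with the block, 0 without libraries 6 and 7), 1 of 10 alpha (2 with the block) and no PP cell marker fell; 1 of 7 ductal (with the block 2, and 1 fell) and 1 of 6 fibroblast markers rose; 1 lymphocyte marker rose and 1 fell; no Schwann marker of 3 passed (1 fell with the block). A few named genes are not reported here.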

Additional observations from a re-analysis of the deposited data

Results flagged for a closer look

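In 78 groups of 7 libraries screened, 1 library stood apart from the other 6 in 13. Chance flags about 1 in 20 groups where values are normally distributed. That rate need not hold for skewed CPM values or low counts, so it is no measure for the 13. Negative library 3 was the high one for Kcne4 (0.902 CPM, the others at most 0.211), Kcnk6 (0.842 CPM), Kcnc1 (1.74 CPM), Kcnmb4 (0.240 CPM) and the pericyte and smooth muscle marker sum (40.3 CPM), and the low one for the beta cell marker sum (107710 CPM, the others at least 140483). Negative library 1 was high for Kcna2 (18.4 CPM), Kcnj5 (0.854 CPM) and Kcnn3 (56.6 CPM). Positive library 1 was high for Kcna2 (13.6 CPM) and the acinar marker sum (964 CPM). Kcnb2 was high in negative library 4 (29.5 CPM) and Kcnk1 in negative library 5 (53.6 CPM).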

How the results depend on the processing

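With the library number as a replicate block, 3200 genes were called in place of 1313, and 5 potassium channel genes fell in place of 1. DESeq2 called 2078 genes, 3 of them potassium channel genes that fell. Without the libraries numbered 6 and 7, 581 genes were called and 0 potassium channel genes fell; with the block added to that fit, chosen after seeing the data, 5 fell. The stricter filter called 3 potassium channel genes higher in place of 7, on 38 tested, beside 856 higher of all 14907 genes tested. Leaving out single libraries gave 1 to 3 potassium channel genes lower (3 without negative library 3), 7 higher each time, and 965 to 1883 genes called. Higher genes were 79.7% of calls, 60.3% with the block, 92.3% without libraries 6 and 7, and 67.3% without negative library 3. The cause of these changes was not tested.

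Of 31 named genes under 23 alternatives, 5 uncalled ones changed sign. Without single libraries the log2 fold changes ran from -9.15918e-05 to 0.13 for Kcnb2, from -0.11 to 0.26 for Kcnc1, from -0.40 to 0.13 for Kcnj3, from -0.0025 to 0.47 for Kcnk3 and from -0.11 to 0.027 for Kcnk12. Kcnk3 was at -0.080 without libraries 6 and 7 and -0.061 with the block added. Kcnk12 was at -0.0063 by DESeq2, -0.0033 with RLE factors, -0.012 with upper quartile factors, -0.020 with no filter and -0.011 with the stricter filter. At these depths, genes under about 1 CPM rest on few reads.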
